A study of Mus musculus with 3 samples.

Results

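T cell receptor alpha V segments are the gene segments that supply the variable part of the alpha chain of the T cell receptor. The members described here are all 128 rows of the count table whose gene symbol starts with Trav, of 44788 rows in all, and each is given by its share of all Trav reads in a library. Reads were available from 3 libraries (replicates 1, 2 and 3) of 1 group, splenic T lymphocytes of female BALB/c mice, 6 to 8 weeks old, kept in RPMI medium with LZ-8, an immunomodulatory protein from the fungus Ganoderma lucidum, over 15 h. Since every library had this treatment and untreated cells were not analysed here, the values describe LZ-8-treated cells without a comparison to others. The cells were taken with beads against CD90.2 (Thy1), which also marks some innate lymphoid cells, and no label ties the replicates to different animals or cultures. Their spread, and any p-value resting on it, may thus be technical. The 9 T cell markers summed to 3700 ± 76.3 CPM (counts per 1000000 library counts; SD, n = 3), and the 5 B cell markers to 14.6 to 16.6 CPM. The 4 monocyte and macrophage markers with a row summed to 3.63 to 4.55 CPM, nearly all of it from Cd68, with 7 reads of Lyz2 in all and none of Csf1r or C1qa. Innate lymphoid cell markers summed to 93.7 to 97.2 CPM, mostly from Id2 and Gata3, which T cells also express. NK cell markers summed to 27.6 to 31.1 CPM, nearly all of it from Eomes (17.5 ± 1.59 CPM) and Klrk1 (10.7 ± 0.154 CPM). Klrb1c, Gzma and Ncr1 were at 0.578, 0.42 and 0.204 CPM on average, and Klre1 had no read.

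In the thymus developing alpha beta T cells join a Trav segment to 1 of many J segments (Traj), and the joined exon is spliced to the constant region Trac. The V segment encodes the first 2 of the 3 loops that contact peptide and MHC and the start of the third, which continues across the join. A thymocyte can rearrange the locus repeatedly, replacing a first join by one that uses a V segment farther upstream. Segments of like sequence form numbered subfamilies, and in the C57BL/6 reference genome a stretch of the locus occurs in repeated blocks, whose copies carry the letters d and n or no letter. Inbred strains differ in the number and sequence of these segments, and the reads here came from BALB/c.

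The members lie on chromosome 14 of GRCm38 (the assembly mm10 denotes), all on the plus strand, from Trav1 to Trav23 between 52427928 and 53977678. Of the 128 rows, 126 matched a GENCODE gene by name, and Trav21 and Trav9-3 did not. GENCODE called 106 of them functional V genes and 20 pseudogenes. The 106 coding parts, leader and V exon together, were 310 to 377 bases long, with a median of 341, and each had an in-frame cysteine codon near its end, 7 to 16 bases before the end of the coding part. This cysteine precedes the third loop. The codon was TGT in 93 segments and TGC in 13. Coding parts of 2 segments of the same subfamily were identical at a median of 89.7% of aligned positions (418 pairs, 69.7 to 100%), against 51.9% for segments of different subfamilies (5147 pairs, 44.3 to 77.6%).

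The last 45 coding bases of 7 segments are shown with the cysteine codon in capitals, because the bases after that codon are the germline start of the third loop. The first 5 are among the most abundant members, and Trav11 and Trav1 are the segments of the invariant receptors described further on. The sequences are from GENCODE M21 (GRCm38), 5′ to 3′ on the plus strand, and the coordinates are those of the gene.
Trav3-3, chr14:53665929-53666506: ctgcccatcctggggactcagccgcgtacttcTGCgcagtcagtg
Trav8d-1, chr14:52778447-52778995: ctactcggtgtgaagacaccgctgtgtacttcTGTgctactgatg
Trav14d-3-dv8, chr14:53078452-53079045: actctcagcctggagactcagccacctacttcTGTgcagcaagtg
Trav12-3, chr14:53621657-53622245: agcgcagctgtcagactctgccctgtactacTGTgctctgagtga
Trav9-4, chr14:53676141-53676630: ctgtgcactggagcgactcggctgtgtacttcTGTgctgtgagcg
Trav11, chr14:53519303-53519859: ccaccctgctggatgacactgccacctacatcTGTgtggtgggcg
Trav1, chr14:52427928-52428876: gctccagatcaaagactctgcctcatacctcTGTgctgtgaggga

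Trav reads were few but their total was steady. They numbered 2222, 1448 and 1706 in replicates 1, 2 and 3, of 19041670, 12669690 and 14715992 library counts. That is 117, 114 and 116 CPM, or 116 ± 1.23 CPM (SD, n = 3). Of the 128 rows, 99 had a read in every library, 12 in some and 17 in none, and 45 reached a mean of 1 CPM. A row without reads in a library allows a share of up to 0.135%, 0.207% and 0.176% of Trav reads in replicates 1, 2 and 3 (3 reads of the Trav total, counting error only). The exact intervals used for shares below are two-sided and reach 0.166%, 0.254% and 0.216% for such a row.

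The reads were spread over many segments, and no row held over 7% of them in a library. The 10 leading rows held 31.5% of Trav reads, and 22 rows were needed to reach 50% of the summed mean shares. The effective number of segments (the inverse Simpson index, the number of equally used rows that would give the same concentration) was 55.0, 53.3 and 54.5 in the 3 libraries, or 54.2 ± 0.841 (SD, n = 3). It was 37.8 ± 1.59 for the 60 Traj rows and 8.62 ± 0.514 for the 35 V rows of the beta chain (Trbv). Trbv13-1 alone held 24.9% of Trbv reads, while the leading Trav row held 5.5% of Trav reads. The number of rows differs between these families, and these values were not tested against each other.

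**Figure D1:**
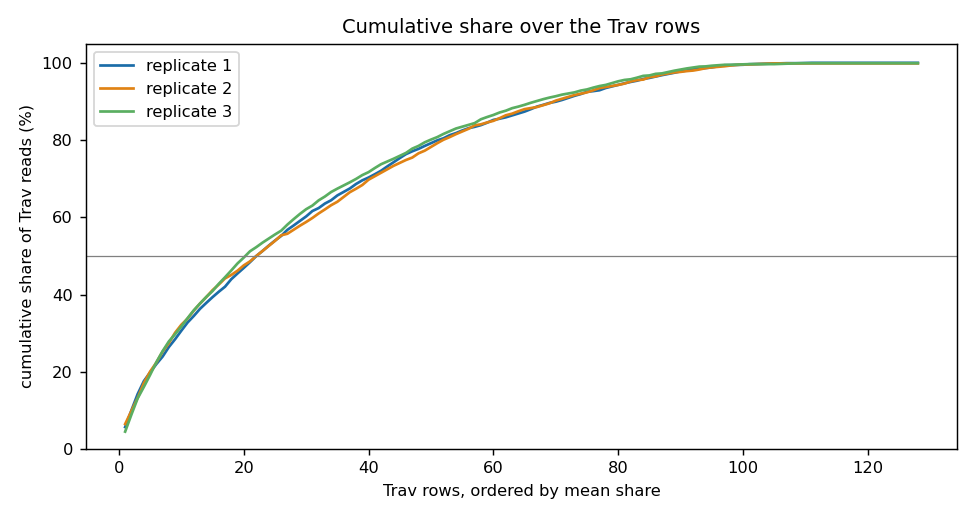
Cumulative share of Trav reads (y axis, %) over the 128 Trav rows ordered by mean share (x axis), with 1 line for each library and a grey line at 50%. The 3 lines lie close together, and the first 10 rows hold 31.5% on average.

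Trav3-3 was the most abundant segment. It had 125, 93 and 76 reads in replicates 1, 2 and 3, which was 5.63%, 6.42% and 4.45% of Trav reads (5.5 ± 0.99%, SD, n = 3). Replicate 3 was lowest, with an exact (Clopper-Pearson) 95% interval of 3.53 to 5.54%, which reaches into the interval of replicate 2 (5.21 to 7.81%). Next came Trav8d-1 with 96, 49 and 75 reads and Trav14d-3-dv8 with 94, 49 and 72 reads. Both were near 4% of Trav reads (4.03 ± 0.564% and 3.94 ± 0.486%, SD, n = 3), so their order is not settled by these data. The letters dv in the second name mark a segment that can also be joined in the delta chain. Trav12-3 followed with 75, 56 and 51 reads (3.41 ± 0.44%, SD, n = 3).

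The other 6 of the 10 leading rows lay closer together, between 2.09% and 2.78%. Trav7-4 had 50, 43 and 53 reads and Trav7d-4 had 48, 34 and 56 reads, and the pair shared 85.3% of their 31-mers (stretches of 31 bases). Trav8d-2 had 43, 41 and 49 reads, Trav9-4 had 55, 32 and 43, Trav7-3 had 45, 39 and 32, and Trav6-6 had 49, 30 and 34. Mean shares of neighbours in this order differed by no more than the larger of their SDs. All 31-mers of Trav6-6 also occur in Trav6d-6, so the reads of this pair may not be separable. Per kilobase of annotated exon Trav3-3 stood at 15.2 ± 2.63 CPM, ahead of Trav8d-1 at 11.7 ± 1.74 CPM (SD, n = 3), and the same 10 rows led.

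**Figure D2:**
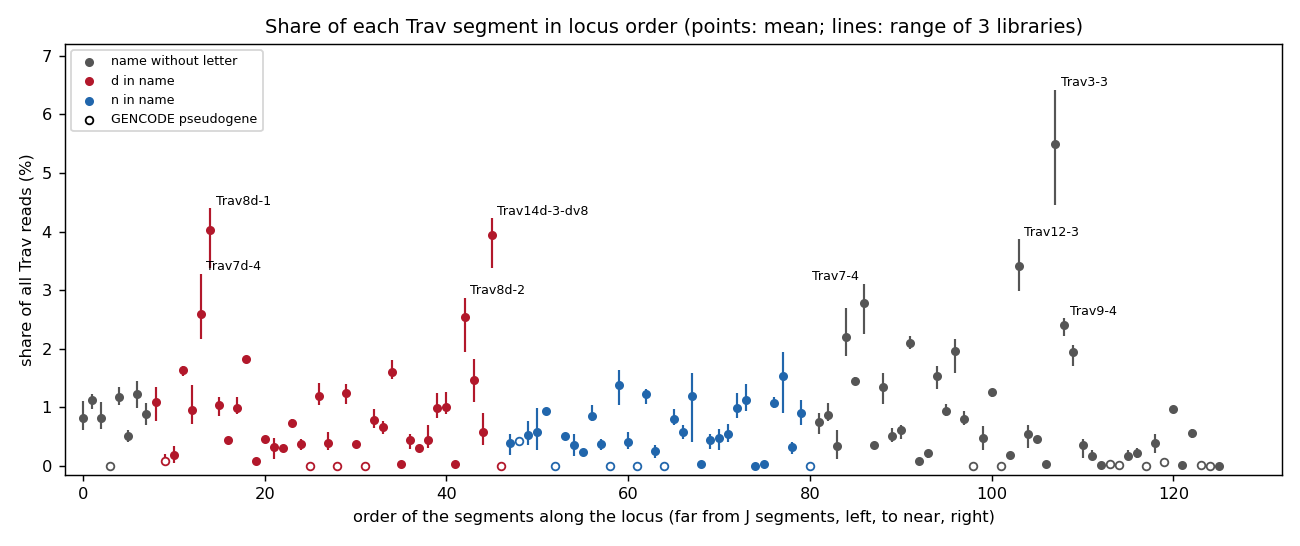
Share of Trav reads (y axis, %) of the 126 annotated rows in the order of their start along chromosome 14 (x axis, far from the J segments on the left), with points for the mean and lines for the range of the 3 libraries. Trav3-3 reached 6.42% in replicate 2, colours give the letter in the name, and open symbols, the GENCODE pseudogenes, lie at or near 0 except Trav9n-1 at 0.421%.

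Among the 23 subfamilies, 8 held most of the reads, each at over 5%. Trav7 was first with 263, 218 and 251 reads, or 11.8%, 15.1% and 14.7% of Trav reads (13.9 ± 1.77%, SD, n = 3). Trav6 had 297, 200 and 201 reads (13.0 ± 1.07%) and Trav14, known as Vα2 in the older nomenclature, had 292, 147 and 211 reads (11.9 ± 1.55%). The order of these 3 was not the same in the libraries, with Trav6 first in replicate 1 and Trav7 first in the other two. Trav12 (Vα8) held 9.93 ± 1.29% and Trav9 (Vα3) 9.68 ± 1.09% of Trav reads, so the 5 leading subfamilies together held 58.3 ± 0.485% (SD, n = 3). Trav8 at 8.02 ± 0.576%, Trav3 at 7.59 ± 1.45% and Trav4 at 5.96 ± 0.459% completed the group.

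How far 1 segment carried its subfamily differed. Trav3-3 held 72.8% of the reads of Trav3, a subfamily of 8 rows, and Trav8d-1 held 51.0% of those of Trav8. In Trav7 (13 rows) and Trav6 (15 rows) the leading rows Trav7-4 and Trav6-6 held 19.9% and 16.2%. Trav14d-3-dv8 held 33.1% of Trav14, Trav12-3 34.3% of Trav12, Trav9-4 24.7% of Trav9 and Trav4-4-dv10, with 38, 30 and 35 reads, 32.0% of Trav4.

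The smaller subfamilies were measured with few reads. Trav13 (12 rows, led by Trav13-1 with 19, 13 and 18 reads) held 4.48 ± 0.507% of Trav reads, and Trav5 (led by Trav5-1 with 26, 15 and 23 reads) 3.51 ± 0.129% (SD, n = 3). Trav16 held 3.0 ± 0.867%, Trav10 (led by Trav10d with 26, 13 and 15 reads) 2.17 ± 0.264% and Trav15 (led by Trav15-1-dv6-1 with 17, 10 and 16 reads) 1.67 ± 0.342%. The single-row subfamilies with more than 1 read lay below these, from 1.57% for Trav21 to 0.567% for Trav19. Trav21 had 31, 21 and 32 reads, Trav2 had 26, 14 and 21, Trav17 had 21, 14 and 17, Trav1 had 16, 9 and 19, and Trav19 had 14, 7 and 10. At the low end Trav18 and Trav20 had 1 read in all, in replicate 3, and Trav22 and Trav23 had none.

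**Figure D3:**
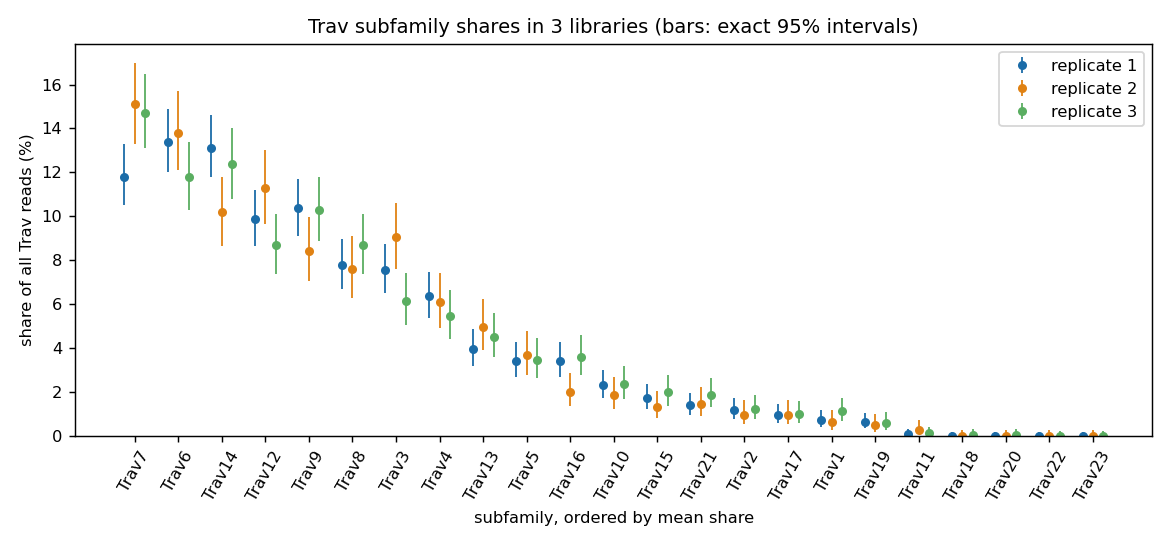
Share of Trav reads (y axis, %) of the 23 subfamilies ordered by mean share (x axis), with 1 point for each library and bars for exact 95% binomial intervals, which cover counting error only. The 3 libraries overlap in most subfamilies, and Trav7, Trav6 and Trav14 lie highest at 13.9%, 13.0% and 11.9% on average.

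The subfamily shares depended on which rows of like sequence were counted. A median of 77.7% of a row's 31-mers also occurred in transcripts of another gene, and for 113 of the 126 annotated rows the gene that shared most was another Trav row. For 42 rows every 31-mer was shared. In the 30 rows with under 50% shared 31-mers, Trav6 held 23.4% and Trav8 17.8% of the reads, Trav7 held 7.1% and Trav12 0.322%. These values depend on which rows of a subfamily passed, so they cannot be set against the shares over all rows. Trav12 was left with Trav12-4 alone, a GENCODE pseudogene with 3, 0 and 1 reads. With rows of nearly the same sequence counted once, a setting added after seeing the data, Trav7 stood at 14.5%, Trav6 at 11.6% and Trav14 at 11.4%.

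Copies with the same sequence had similar read totals over the 3 libraries, though not always within each library. In 15 pairs of rows with reads, all 31-mers were shared, and the 2 rows differed by a median of 0.16 log2 units in their reads over the 3 libraries (0.5 added), at most by 0.42. In the 71 pairs with 20 to under 60% of 31-mers shared the median was 1.48 log2 units and the highest 6.48. Pairs overlap in their rows, so these are descriptions. The counts were the same in every library for 3 of the 15 identical pairs, for 5 of the 14 pairs with 60 to under 100% shared (median 0.06 log2 units) and for 0 of the 71. Of the 15 identical pairs, 6 were within 1 read in every library.

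Trav5d-4 and Trav5n-4, with coding parts identical over 343 bases, both had 20, 18 and 14 reads. Trav3d-3 and Trav3n-3 both had 12, 7 and 5 reads. Trav12d-2 had 31, 19 and 18 reads and Trav12n-2 had 29, 19 and 18. Other identical pairs parted within a library: Trav4d-4 had 7, 10 and 6 reads and Trav4n-4 had 16, 6 and 9, and in replicate 2 Trav14d-2 had 26 reads and Trav14n-2 had 6. Whether the same reads entered both rows of such a pair was not tested.

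**Figure D4:**
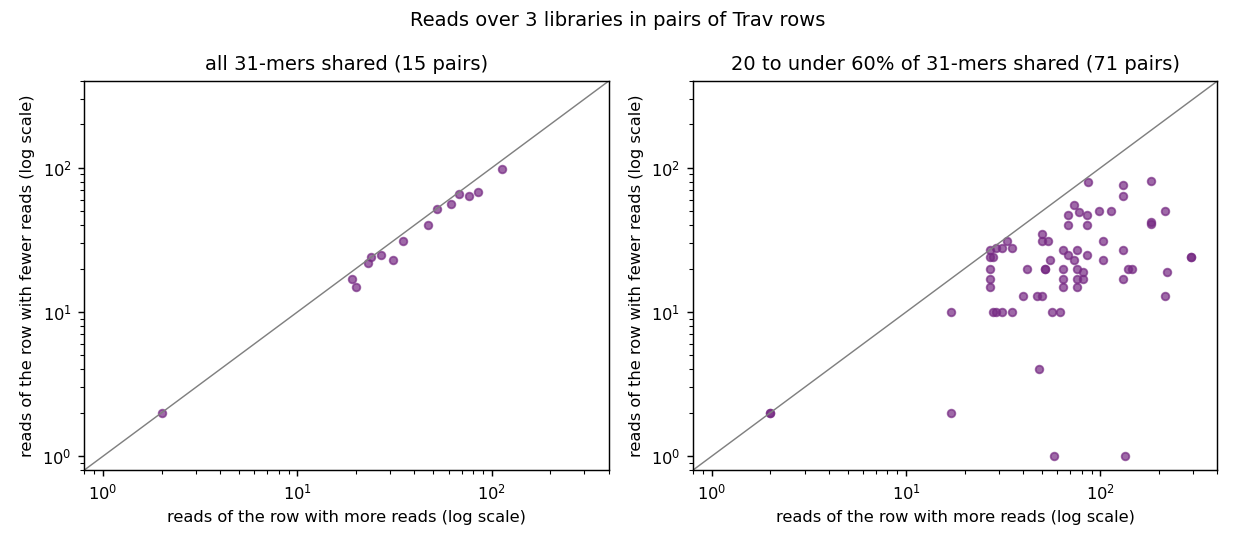
Reads over the 3 libraries of the row with fewer reads (y axis, log scale) against the row with more reads (x axis, log scale), for pairs of Trav rows with reads that share all 31-mers (left, 15 pairs) or 20 to under 60% of them (right, 71 pairs). On the left the points lie close to the grey line of equal counts, with a median difference of 0.16 log2 units, against 1.48 on the right.

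Some copies that differ at few bases had unlike counts. Trav3-3 had 125, 93 and 76 reads, and its copy in the d block, Trav3d-3, had 12, 7 and 5, although their coding parts differed at 4 of 343 positions. The last 240 coding bases (positions 104 to 343, which hold all 4 differences) are printed with the differing bases in capitals, because Trav3-3 is the leading segment and shares 51.9% of its 31-mers with Trav3d-3. Trav3d-3 lies at chr14:52972448-52973038, and Trav3n-3 has the same coding sequence.
Trav3-3: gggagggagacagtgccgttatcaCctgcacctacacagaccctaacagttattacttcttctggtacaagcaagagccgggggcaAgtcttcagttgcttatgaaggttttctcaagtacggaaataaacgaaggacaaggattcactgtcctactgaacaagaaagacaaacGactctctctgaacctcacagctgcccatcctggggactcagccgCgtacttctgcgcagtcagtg
Trav3d-3: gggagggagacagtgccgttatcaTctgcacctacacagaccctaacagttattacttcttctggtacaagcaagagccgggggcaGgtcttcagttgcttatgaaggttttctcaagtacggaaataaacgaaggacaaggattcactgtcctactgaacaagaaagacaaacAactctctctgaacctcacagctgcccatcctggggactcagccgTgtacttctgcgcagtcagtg
Similar cases were Trav8d-1 and Trav8-1, with 13 differences in 337 aligned positions, where Trav8d-1 had 96, 49 and 75 reads and Trav8-1 had 7, 5 and 7.

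More reads were counted in rows of the d block than in rows of the n block. Many d rows share all their 31-mers with an n row, so the reads of such pairs may not be separable by block. The blocks are those of the reference genome, while the reads came from BALB/c. The values thus describe counted rows, and whether the blocks differ in usage was not tested. The 39 rows with d in their name held 35.2 ± 0.959% of Trav reads, the 34 rows with n 18.5 ± 1.85% and the 55 rows without a letter 46.2 ± 1.36% (SD, n = 3). The d share exceeded the n share in each of the 3 libraries, at 34.2%, 35.6% and 36.0% against 20.3%, 16.6% and 18.6%. The median row was closer, at 0.576% in the d block, 0.458% in the n block and 0.518% without a letter. Trav8d-1 and Trav14d-3-dv8, with shares of 4.03% and 3.94%, lie in the d block. In the 30 rows with under 50% shared 31-mers, the rows without a letter held 70.8% of the reads, the d rows 17.7% and the n rows 11.5%. Most of these 30 rows have no letter in their name and few have d or n, so these values do not compare usage between the blocks.

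Mean share was at most weakly correlated with position along the locus. Over the 106 functional rows, Spearman's rho between start position and mean share was -0.15, and it was 0.13 with exon length and -0.15 with the percentage of shared 31-mers. These are descriptions over segments of the same libraries. Between 52427928 and 52667864, the end farthest from the J segments, the 8 rows from Trav1 to Trav6-2 held 6.56 ± 0.119% of Trav reads (SD, n = 3). At the near end the 6 rows from Trav17 to Trav23 held 1.58 ± 0.125%, and nearly all of it came from Trav17 and Trav19. The row Trav21 matched no annotated name, so it has no position here and is not counted in that region, and it held 1.57 ± 0.263% by itself.

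Pseudogene rows had almost no reads. The 20 GENCODE pseudogenes held 0.643 ± 0.0694% of Trav reads (SD, n = 3), and 14 of the 17 rows without any read were among them. Most pseudogene reads fell on Trav9n-1, with 10, 5 and 8 reads, which RefSeq lists as a V segment and not as a pseudogene. By the RefSeq annotation, a setting added after seeing the data, 16 rows were pseudogenes and held 0.168 ± 0.0461%. The other 3 rows without a read were Trav7n-6, functional in both annotations, Trav23, functional in GENCODE and a pseudogene in RefSeq, and the unmatched Trav9-3.

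Of the V segments of the invariant receptors, Trav11 was at the low end and Trav1 was not. Trav11, which invariant natural killer T cells join to Traj18, had 1, 2 and 1 reads in replicates 1, 2 and 3. Trav11d had the same counts and Trav11n had none, so the subfamily held 0.161 ± 0.101% of Trav reads (SD, n = 3). The coding parts of Trav11 and Trav11d differ at 1 of 343 aligned positions. Their reads may thus have been counted in both rows or lost, which was not tested. With rows of nearly the same sequence counted once, the subfamily held 0.0923 ± 0.0576% (SD, n = 3). The J segment Traj18, named after its values were seen, had 28, 21 and 21 reads and was the most abundant of the 60 Traj rows, with 4.37% of Traj reads. Trav1, which mucosal-associated invariant T cells join to Traj33, had 16, 9 and 19 reads (0.818 ± 0.26% of Trav reads, SD, n = 3). The libraries gave 0.72%, 0.622% and 1.11%, so replicate 2 was below the median of 0.64% over the functional rows and the others above it. Trav1 shares no 31-mer with another gene while most rows do, so that median is not a like baseline. The J segment of Trav1, Traj33, likewise named afterwards, had 5, 3 and 2 reads.

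Of the 9 genes listed for these innate-like cells, 6 were above 1 CPM and Klrb1b had no read, and their sum was 49.4 to 54.3 CPM. The list includes Cd1d1 (4.48 ± 0.336 CPM) and Mr1 (3.62 ± 0.662 CPM, SD, n = 3), which encode the molecules these receptors recognise and do not mark the cells. Zbtb16, which encodes their lineage factor PLZF, had 80, 55 and 65 reads. Activated conventional T cells also express some of these genes, such as Il18r1 and Cxcr6, and their part in the values of Trav11 and Trav1 was not tested. In bulk RNA, fewer cells of a type and less RNA per cell cannot be told apart.

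Some V segments can be joined in either the alpha or the delta chain, and reads of a V segment do not tell which. The 9 rows with dv in their name held 8.96 ± 0.985% of Trav reads (SD, n = 3). They ranged from Trav14d-3-dv8 with 94, 49 and 72 reads to Trav15d-2-dv6d-2 with 1, 0 and 1, and included Trav4-4-dv10 and Trav16d-dv11, with 33, 16 and 31 reads. These 9 were taken by the spelling of the count table, so segments spelled without dv are not among them. For example, all 31-mers of Trav15n-1 occur in Trav15d-1-dv6d-1, and both rows had 9, 4 and 8 reads. The unmatched Trav21 could not be checked for another name. The delta constant region Trdc had 67, 29 and 42 reads, or 2.89 ± 0.616 CPM, against 411 ± 13.8 CPM for Trac (SD, n = 3). Their annotated exons span 3865 and 935 bases. Scaled to that length, Trdc stood at 0.747 ± 0.159 CPM per kilobase and Trac at 439 ± 14.7 CPM per kilobase (SD, n = 3). The 6 Trdv rows, V segments used in the delta chain, had 36, 19 and 38 reads in all. Of the 8 gamma delta T cell markers listed, Trdc among them, 4 had a row, and Trgc1, Trgc2, Trgc4 and Scart1 did not. Of the others with a row, Blk had 52, 36 and 42 reads, Sox13 had 10, 3 and 9 and Cd163l1 had 6, 4 and 6. Blk is also expressed in B cells.

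The other genes of the receptor were abundant, while the genes specific to V(D)J recombination had few reads or none. Trav reads numbered 29.6, 27.2 and 27.8 per 100 Trac reads, and Trbv reads 31.1, 30.2 and 28.9 per 100 reads of Trbc1 and Trbc2. Summed over rows and scaled to exon length, Trav stood at 294 ± 1.86 CPM per kilobase against 439 ± 14.7 for Trac, a ratio of 0.669 ± 0.0269 (SD, n = 3). With rows of nearly the same sequence counted once the ratio was 0.579 ± 0.0204. Of the 12 constant region and CD3 genes listed, 8 had a row, and all 8 were above 1 CPM, among them the CD3 chain genes Cd3e (102 ± 5.01 CPM per kilobase) and Cd247 (51.2 ± 1.59 CPM per kilobase). Rag1, a subunit of the recombinase that cuts beside V segments, had 8, 2 and 2 reads, while its partner Rag2 and the pre-T alpha gene Ptcra had none and Dntt, which adds bases at the join, had 1. All 8 end-joining genes were above 1 CPM, led per kilobase by Xrcc5 at 25.3 ± 1.73 CPM.

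Rows and subfamilies kept a similar order in the 3 libraries. Spearman's rho of the 128 row shares was 0.93 to 0.96 for pairs of libraries, and of the 23 subfamily shares 0.98 to 0.99. Exact 95% intervals of the 3 libraries had a value in common for 127 of 128 rows and for 22 of 23 subfamilies. The exceptions were the row Trav14n-2 and the subfamily Trav3, which stood at 7.56%, 9.05% and 6.15% of Trav reads in replicates 1, 2 and 3. For the 17 rows without any read, and for Trav22 and Trav23 as subfamilies, a common value was fixed in advance. Rows with few reads could hardly differ either. The rows without reads also entered the values of rho.

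Each gene was also tested for counts that differ between the libraries by more than counting noise, by the likelihood-ratio test of edgeR at a dispersion of 0. Genes reaching 1 CPM in 2 or more libraries entered it, and p-values were adjusted over all of them. This test compares these libraries and not conditions. Of the 128 Trav rows 43 could be tested and 1 (2.33%) was called at an adjusted p under 0.05, against 13.7% of the 13500 genes tested. The 43 tested Trav rows had a median of 24.3 reads per library and all tested genes 418, so the test could see smaller differences in most other genes. Among the 3114 tested genes within the range of mean reads of the tested Trav rows (16.3 to 98), 4.37% were called. The median range between libraries was 0.43 log2 units for the tested Trav rows and 0.17 for all genes tested.

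The called row was Trav14n-2, with 35, 6 and 27 reads in replicates 1, 2 and 3 (edgeR's likelihood-ratio test, adjusted p = 0.00904). Replicate 2 stood apart at 0.474 CPM, against 1.84 and 1.83 CPM in the others. Without replicate 2 the adjusted p was 0.996, and without either of the others the row fell below the expression filter. Trav14d-2, whose coding part is identical, had 33, 26 and 26 reads. At an unadjusted p under 0.05 the count was 2, the second row being Trav16n with 43, 13 and 30 reads (edgeR, adjusted p = 0.115), again lowest in replicate 2.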

How the data were processed

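Gene-level RNA-seq counts from 3 libraries were used. What the authors deposited is a table of raw counts, 1 column per library. The submitters' processing notes name the build mm10. Which aligner and counter were run, whether strand was used and how multi-mapping reads were handled is not given in the sources used here. Reads of near-identical V segments may therefore have been lost, split or counted more than once, and reads from BALB/c were set against segments of the C57BL/6 reference.

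The members and lists were chosen with earlier results of these data known. A share is a row's reads divided by all Trav reads of its library, with exact binomial intervals at 95%. These cover counting error only, since reads without molecular identifiers are not independent molecules. A subfamily is the number after Trav up to the first letter or hyphen. A single group allows no contrast, so the libraries were compared with each other: edgeR 4.0.16, TMM scaling, a likelihood-ratio test at dispersion 0, and p-values adjusted by the Benjamini-Hochberg method. The step was tested on simulated data. DESeq2 1.42.0 gave alternative size factors.

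Positions, biotypes, exon lengths, coding sequences and shared 31-mers (both strands, all transcripts) came from GENCODE M21, and a second biotype from RefSeq. RefSeq lists Trav16n as a synonym of Trav16, so the identity of that row is uncertain. Values per library were given for the 10 rows with the highest mean share, the leading row of each subfamily, Trav11, Trav11d, Trav1 and the row called as varying. The copies and other rows named beside them were chosen after their values were seen. Other tools were matplotlib 3.10.9, biopython 1.88, pandas 2.3.3, scipy 1.17.1 and numpy 2.4.6, run in Python 3.11.15, with R 4.3.3.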

Additional observations from a re-analysis of the deposited data

How the results depend on the processing

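No paired analysis was possible because there is only 1 group. Counting rows of nearly the same sequence once, and taking pseudogenes from RefSeq, were chosen after seeing the data. Restriction to rows with under 50% shared 31-mers gave a summed Trav level of 23.4 CPM and 15.6 effective segments. The 5 subfamilies that led among all rows then held 40.5%, and the 10 rows that led among all rows held 12.5%. Pseudogenes held 0.834%, and rows without a letter, with d and with n held 70.8%, 17.7% and 11.5%. Fewer rows enter these values. Of those 10 rows only Trav8d-2 passed the restriction, and no Trav9 row did, so the values are not leading shares within the restricted set. Counting like rows once gave 101 CPM, 44.5 effective segments, 55.7%, 36.1%, 0.737%, and 52.0%, 32.2% and 15.8% for the same quantities. Reads per kilobase of exon gave 56.2 effective segments, 30.2% in the 10 leading rows and 0.767% on pseudogenes, and pooled reads 55.5 effective segments. RefSeq biotypes gave 0.168% on pseudogenes. With a library left out, no Trav row was called as varying (range 0 to 0), against 1 with all 3; DESeq2 size factors, unscaled totals and other expression filters each gave 1. Of the subfamily shares, reads per kilobase moved 4 by more than the SD over the libraries, counting like rows once moved 7, and the restriction to rows with under 50% shared 31-mers moved 17 of 19. With 1448 to 2222 Trav reads per library, most rows rest on few reads, and small differences between rows were not detectable at this depth.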
